A study of Homo sapiens with 18 samples.

Results

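CCL22, CCL2, CCL5, CCL20 and CX3CL1 are 5 chemokine genes of the CC and CX3C families, and their transcripts were followed in ECV304 cells over the first hours of interleukin-1β (IL-1β) stimulation, with and without aminaphtone. They were taken as the transcript clusters (the probe groups that the array summarises into 1 value) annotated with exactly 1 gene symbol equal to a member. These are 5 of 18377 genes with such a transcript cluster, and each had 1. ECV304 is a human line distributed as endothelial, and the labels say that its cells show endothelial and epithelial traits alike. Aminaphtone is a capillary-protecting drug used in vascular disorders. Confluent cells, kept in low serum beforehand, received IL-1β at 100 IU/ml together with aminaphtone at 6 µg/ml or with the same volume of medium (control), and RNA was collected at 1, 3 or 6 h. Each of these 6 groups had 3 independent replicates, 1 Affymetrix Human Gene 1.0 ST array each, 18 in all. All groups received IL-1β, so the time course has no unstimulated arm and a control is a culture with IL-1β alone. The comparisons ask how transcripts differ with the drug in cells given the cytokine. No group had the drug alone, so a change in the response to IL-1β cannot be told from a drug effect that does not need it.

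Chemokines are small secreted proteins that direct the migration of leukocytes along gradients, through receptors that couple to G proteins. IL-1β binds its receptor on vascular and epithelial cells and, through MyD88 and IRAK kinases, releases NF-κB subunits into the nucleus, where they act on many chemokine promoters. CCL22 is a ligand of CCR4 on Th2 and regulatory T cells and is best known from dendritic cells and macrophages. CCL2 attracts monocytes through CCR2, CCL5 attracts T cells and monocytes, and CCL20 attracts CCR6-bearing dendritic cells and lymphocytes. CX3CL1 (fractalkine) is made as a membrane protein on a mucin stalk, binds CX3CR1 and is cut from the cell by metalloproteases.

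CCL22 and CX3CL1 lie on chromosome 16, where RefSeq places them side by side in the order PLLP, CCL22, CX3CL1, CCL17, CIAPIN1. CCL2 and CCL5 lie on chromosome 17 and CCL20 on chromosome 2. A promoter sequence was matched for 2 of the 5 members, CCL22 and CCL20, and both are shown. They were set by which sequences were available, not by their differences between the arms. Each run is the 250 bases before the start of the gene in RefSeq (GRCh38.p14, + strand), at chr16:57358533-57358782 and chr2:227813592-227813841. Capitals mark each match, on either strand, to the consensus of the site that NF-κB binds, and matches that overlap run together.
CCL22: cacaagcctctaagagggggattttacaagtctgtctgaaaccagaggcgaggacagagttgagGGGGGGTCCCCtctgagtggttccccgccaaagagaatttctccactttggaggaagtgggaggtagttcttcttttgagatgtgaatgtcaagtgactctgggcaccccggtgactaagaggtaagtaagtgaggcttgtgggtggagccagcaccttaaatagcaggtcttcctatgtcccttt
CCL20: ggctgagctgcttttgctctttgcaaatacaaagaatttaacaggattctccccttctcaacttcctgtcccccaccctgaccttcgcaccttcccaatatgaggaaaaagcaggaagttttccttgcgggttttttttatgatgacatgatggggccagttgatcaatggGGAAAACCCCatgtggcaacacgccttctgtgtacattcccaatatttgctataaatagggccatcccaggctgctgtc

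The NF-κB consensus matched the CCL22 promoter at bases -186 to -177 and -185 to -176 before the start, a pair that overlaps and that reads as a match on both strands. In the CCL20 promoter it matched once, at -79 to -70, on 1 strand. Among 35114 promoters of the same length, 9.96% held a match to that consensus. The CCL20 promoter also held TATAAA at -29 to -24, which was in 10.72% of promoters, and the CCL22 promoter did not. Neither held TGANTCA, an AP-1 motif present in 6.57%. These are letter matches in a window and no binding was measured.

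The deposited values are log2 signals, so a difference of 1 is a doubling, and signals of different genes were not compared because their probes differ. The arrays of each group correlated with each other at 0.986 or above, except the control arrays at 1 h, which correlated at 0.964 to 0.986, so that the 1 h comparisons carry the widest spread in their control group. No arrays were identical. Each comparison was tested in 1 limma fit over the 15796 annotated transcript clusters whose mean signal lay above a low filter (6.193), which all 5 members passed, and a gene is called where its Benjamini-Hochberg adjusted p is below 0.05. Of 10 endothelial marker genes on the array 4 exceeded that filter (CDH5, TIE1, ESAM and CLDN5). PECAM1, VWF, KDR, TEK, ERG and EMCN were under it. Of 13 urothelial or other epithelial markers 12 exceeded it. Of the lymphocyte markers 1 of 6 did, and of the macrophage and dendritic cell markers 4 of 7. The filter is the 25th percentile of mean signal, which 15796 of 21062 annotated clusters exceeded. Passing it does not by itself show that a marker is expressed. In these bulk samples fewer cells of a type and less RNA per cell cannot be told apart.

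CCL22 was the member that fell with aminaphtone, by 2.2-fold at 3 h and 1.99-fold at 6 h. Its log2 signals at 1 h were 6.94, 7.34 and 7.53 in the control replicates and 6.74, 6.82 and 6.93 with aminaphtone. At 3 h they were 7.99, 8.73 and 8.50 in the controls against 7.33, 7.45 and 7.03. At 6 h they were 8.44, 8.01 and 8.37 in the controls against 7.22, 7.32 and 7.28. The treated means of 6.83, 7.27 and 7.28 at 1, 3 and 6 h stood near the array medians of all transcript clusters (6.926 to 7.055). Whether these CCL22 signals exceed background was not tested. The highest treated array lay under the lowest control array at all 3 times, by 6.93 against 6.94 at 1 h and by over 0.5 at 3 and 6 h. Of the 15796 transcript clusters tested, 0.203% (32) were lower without overlap at all 3 times, and 25.4% had a lower treated mean at all 3 times.

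The CCL22 difference between aminaphtone and control was -0.44 at 1 h (SE 0.184, 95% interval -0.83 to -0.05), a 1.36-fold lower signal, with an adjusted p of 0.145 in the limma fit with Benjamini-Hochberg adjustment over all transcript clusters. At 3 h it was -1.14 (interval -1.53 to -0.75), 2.2-fold lower, with a limma adjusted p of 0.0359. At 6 h it was -0.99 (interval -1.38 to -0.61), 1.99-fold lower, with a limma adjusted p of 0.0457. Averaged over the times, CCL22 fell by 0.86 (SE 0.106, interval -1.08 to -0.63), or 1.81-fold, with a limma adjusted p of 0.000546. CCL22 thus passed the threshold of 0.05 at 3 h, at 6 h and on average, but not at 1 h. By p-value it ranked 3057 of 15796 at 1 h, 4 at 3 h, 17 at 6 h and 10 on average. The difference at 3 h exceeded that at 1 h by -0.70 (interval -1.24 to -0.15), but with a limma adjusted p of 0.329 this change of the difference with time did not pass. The calls at single times stood near the threshold. Leaving out each of the 18 arrays in turn kept the 3 h call in 5 fits and lost it in 13 (limma adjusted p 0.0529 to 0.262), and kept the 6 h call in 7 and lost it in 11 (0.059 to 0.333), with differences of -1.35 to -0.97 and -1.13 to -0.91; the average call held in all 18, with a highest adjusted p of 0.00253.

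**Figure D1:**
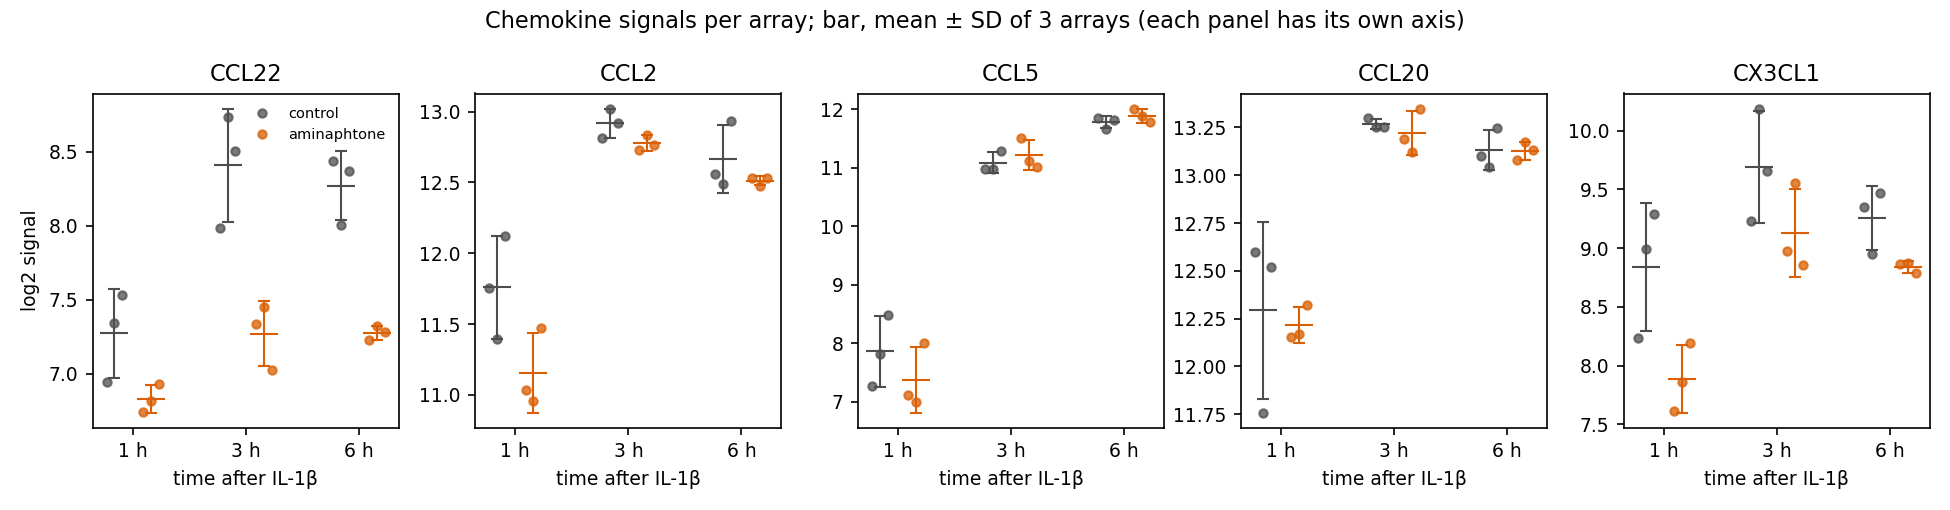
Log2 signal of each chemokine gene on each array (points) by time after IL-1β, for control and aminaphtone, with the mean and SD of 3 arrays; each panel has its own axis. The CCL22 points do not overlap between the arms at any of the 3 times, narrowly at 1 h (6.93 against 6.94). Those of CCL5 and CCL20 overlap between the arms at every time.

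The single CCL22 calls lost in those fits include some from fits that left out an array of the compared groups and some that left out an array of another group, since all groups share 1 estimate of the spread. The 3 h call was kept without any of the 3 control arrays at 1 h, without aminaphtone replicate 3 at 1 h and without control replicate 1 at 3 h. The 6 h call was kept without any of the 3 control arrays at 1 h, without control replicates 1 and 2 at 3 h, without aminaphtone replicate 3 at 3 h and without control replicate 2 at 6 h. The direction of CCL22 was lower in every one of these fits.

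CX3CL1, the membrane-bound neighbour of CCL22, had lower treated means at all 3 times, with no call after adjustment. At 1 h its control signals were 8.24, 8.99 and 9.29 and its treated signals 7.62, 7.86 and 8.19. At 3 h they were 9.23, 10.19 and 9.66 against 8.98, 9.55 and 8.86. At 6 h they were 9.35, 8.95 and 9.47 against 8.86, 8.87 and 8.79. The arms did not overlap at 1 h or at 6 h and overlapped at 3 h, where treated replicate 2 exceeded control replicate 1. The differences were -0.95 at 1 h (interval -1.52 to -0.39, limma adjusted p = 0.139), -0.57 at 3 h (adjusted p = 0.768) and -0.42 at 6 h (interval -0.98 to 0.15, adjusted p = 1). On average CX3CL1 differed by -0.64 (SE 0.154, interval -0.97 to -0.32) with a limma adjusted p of 0.0615, just outside the threshold. Without control replicate 1 at 1 h, control replicate 1 at 3 h or aminaphtone replicate 2 at 3 h, each left out alone, that average passed.

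CCL2, the monocyte attractant, had its widest difference between the arms at 1 h and was called at no time. Its control signals at 1 h were 11.76, 11.40 and 12.12 and its treated signals 11.04, 10.95 and 11.47, so that the highest treated array lay above the lowest control array. The difference was -0.60 (interval -0.96 to -0.25), with a limma adjusted p of 0.139. At 3 h the controls read 12.81, 13.02 and 12.92 and the treated arrays 12.73, 12.84 and 12.77, and at 6 h the controls read 12.56, 12.49 and 12.94 and the treated arrays 12.53, 12.47 and 12.53. These differences, -0.14 at 3 h and -0.15 at 6 h, had limma adjusted p-values of 0.902 and 1, and the arms overlapped. The average difference was -0.30 (interval -0.50 to -0.09), with a limma adjusted p of 0.164.

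Replicate numbers were taken to pair the arrays at 1 h, a pairing inferred from these same values. Control and treated arrays of 1 number deviated from the means of their groups together, with correlations of 0.746, 0.411 and 0.322. With 3 arrays per group such agreement can arise without a true pairing, so the blocked fit is no separate support. With the replicate number within each time as a block, CX3CL1 at 1 h passed with a limma adjusted p of 0.0172 and CCL2 with 0.0228. CCL5 (0.0534), CCL22 (0.0696) and CCL20 (0.667) did not pass. In that blocked fit 15.6% of all transcript clusters passed at 1 h and 4.75% passed as lower, so 2 of 5 members there stand against a broad shift. The blocked averages of CX3CL1 (0.00681) and CCL2 (0.0284) passed as well, where 4.65% of all did. That average also pairs the arms at 3 and 6 h, where same-numbered arrays did not all deviate together. The lowest correlations there were -0.106 and -0.0862. The 1 h comparison also turned on 1 array: without control replicate 1 at 1 h, CX3CL1 (limma adjusted p = 0.00173), CCL22 (0.0134), CCL2 (0.0149) and CCL5 (0.0162) all passed, in a fit where 53.9% of all transcript clusters did.

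CCL5 did not separate by treatment. At 1 h its control signals were 7.27, 7.82 and 8.49 and its treated signals 7.11, 6.99 and 8.01. At 3 h they were 10.98, 10.99 and 11.29 against 11.50, 11.12 and 11.01, and at 6 h 11.86, 11.66 and 11.82 against 12.01, 11.88 and 11.78. The arms overlapped each time. The differences were -0.49 at 1 h (interval -1.05 to 0.07, limma adjusted p = 0.194), 0.13 at 3 h (interval -0.43 to 0.68, adjusted p = 0.942) and 0.11 at 6 h (adjusted p = 1). The average of -0.08 had an interval of -0.41 to 0.24.

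CCL20, the CCR6 ligand, had the smallest standard error of the 5 and estimates near 0 at each time. At 1 h its control signals were 12.60, 11.76 and 12.52 and its treated signals 12.16, 12.17 and 12.32. At 3 h they were 13.30, 13.25 and 13.25 against 13.19, 13.12 and 13.35, and at 6 h 13.10, 13.04 and 13.25 against 13.08, 13.17 and 13.13. Control replicate 2 at 1 h stood below all other arrays of CCL20. The differences were -0.08, -0.05 and -0.0037 at 1, 3 and 6 h, with limma adjusted p-values of 0.709, 0.966 and 1. The average of -0.04 had an interval of -0.24 to 0.15. The mean signal of CCL20 (12.88) lay above 99.51% of annotated clusters and that of CCL22 (7.55) above 50.36%. The sizes of their shifts are therefore not compared.

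**Figure D2:**
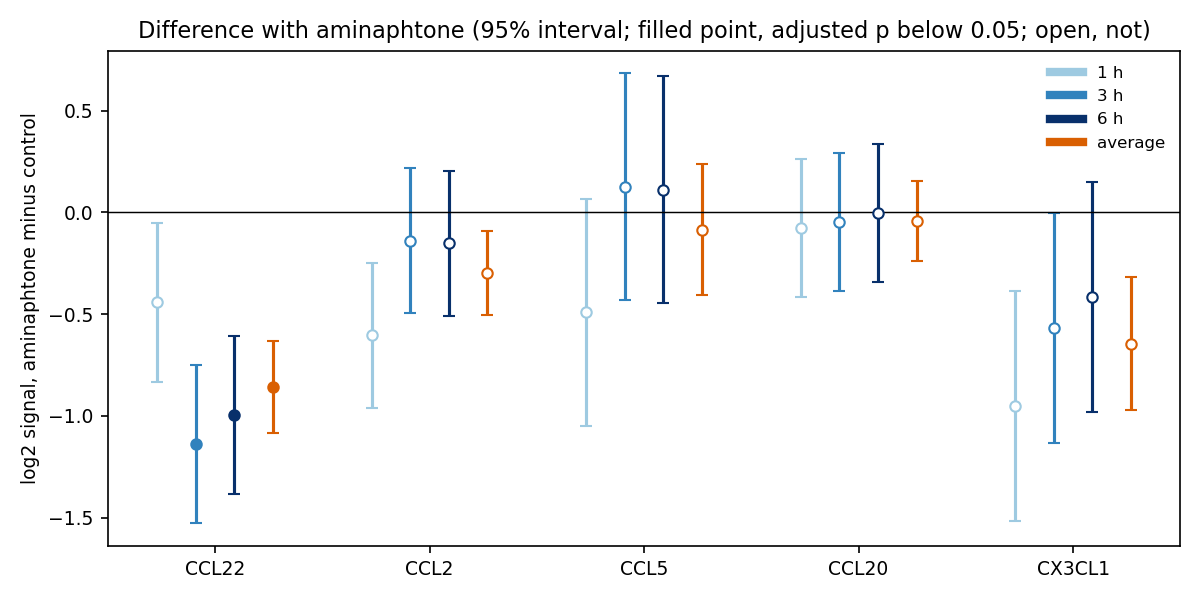
Difference in log2 signal, aminaphtone minus control, for each gene at 1, 3 and 6 h and averaged over the times (points), with 95% intervals; filled points have a limma adjusted p below 0.05. The 3 filled points are CCL22 at 3 h (-1.14), at 6 h (-0.99) and on average (-0.86).

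Counted over the 5 members, limma called 0 at 1 h, where 0.0886% of all transcript clusters were called. At an unadjusted p under 0.05 there were 3 members (CCL22, CCL2 and CX3CL1), against 30.8% of all clusters. CCL22 and CX3CL1 were lower without overlap, as were 7.55% of all. At 3 h 1 of 5 was called, as lower, against 0.019% called lower and 0.038% called in either direction, and CCL22 alone was lower without overlap (4.99% of all). At 6 h 1 of 5 was called, as lower, against 0.108% of all, every one of which was lower, and CCL22 and CX3CL1 were lower without overlap (7.25%). On average 1 of 5 was called, against 0.829% in either direction and 0.405% as lower. The median difference of the members was -0.49 at 1 h, -0.14 at 3 h, -0.15 at 6 h and -0.30 on average, beside -0.10, 0.0033, -0.01 and -0.02 over all clusters tested.

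The limma F-test of an interaction of treatment and time called 0 of 5 members, against 0.038% of all transcript clusters, and at an unadjusted p under 0.05 only CCL22 (F = 3.98, limma adjusted p = 0.532). The change in the drug's difference from 1 to 3 h was -0.70 for CCL22, 0.46 for CCL2, 0.62 for CCL5, 0.03 for CCL20 and 0.39 for CX3CL1. None of these passed, where 0.0127% of all clusters did. From 3 to 6 h the members' changes of the difference ran from -0.02 for CCL5 to 0.15 for CX3CL1 (0.0127% of all clusters passed). From 1 to 6 h they ran from -0.55 for CCL22 to 0.60 for CCL5 (0.0506%), and none passed. CCL22 was the member whose difference grew away from 0 after 1 h in these values, and those of CCL2 and CX3CL1 moved towards 0.

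Between 1 and 3 h with IL-1β alone, all 5 members rose. CCL5 rose by 3.23 (9.36-fold, limma adjusted p = 9.13e-07), CCL2 by 1.16 (2.23-fold, 0.000271), CCL22 by 1.14 (2.2-fold, 0.000698), CCL20 by 0.97 (1.97-fold, 0.000833) and CX3CL1 by 0.85 (1.81-fold, 0.0452). Of all transcript clusters 4.81% were called higher. The 1 h and 3 h arrays did not overlap for 4 of the 5, against 6.25% of all, the exception being CX3CL1, whose highest 1 h array exceeded its lowest 3 h array. The median rise was 1.14, beside -0.02 for all clusters. Same-numbered control arrays at 1 and 3 h deviated together, and with the replicate number as a block all 5 still passed, against 5.8% called higher in that fit. That block spans all 6 groups, including pairs that did not deviate together, such as aminaphtone at 1 and 6 h (-0.678, -0.222 and -0.108). The CX3CL1 call was lost in 13 of 18 fits that left out 1 array (limma adjusted p 0.05 to 0.151), and those of the other 4 genes held in all 18. In a fit to the 6 control arrays of these times alone, CCL22 (adjusted p = 0.0581), CCL20 (0.0889) and CX3CL1 (0.255) did not pass.

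From 3 to 6 h in the controls limma called 0 of 5 members, against 0.513% of all clusters, with 1 member (CCL5) at an unadjusted p under 0.05. CCL5 differed by 0.69 (limma adjusted p = 0.337), without overlap between the times, as 10.8% of all clusters did. CCL20 differed by -0.14 without overlap (7.87% of all), with an adjusted p of 0.926. CCL22, CCL2 and CX3CL1 differed by -0.14, -0.25 and -0.44 with overlap. Over the whole course, from 1 to 6 h, 4 of 5 were called higher, against 11.3% of all, and the same 4 did not overlap (12.9%). CCL5 rose by 3.92 (15.1-fold), CCL22 by 1.00, CCL2 by 0.90 and CCL20 by 0.84, with limma adjusted p-values of 7.49e-08, 0.00102, 0.00113 and 0.0014. CX3CL1 differed by 0.42 (interval -0.15 to 0.98, adjusted p = 0.278).

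With aminaphtone, CCL2, CCL5, CCL20 and CX3CL1 rose from 1 to 3 h and CCL22 did not pass. The rises were 3.84 for CCL5 (limma adjusted p = 2.31e-07), 1.62 for CCL2 (3.08-fold, 1.01e-05), 1.24 for CX3CL1 (2.36-fold, 0.00631) and 1.00 for CCL20 (0.000635). CCL22 differed by 0.44 (interval 0.05 to 0.83) with a limma adjusted p of 0.158. Thus 4 of 5 were called higher, against 5.09% of all clusters, while all 5, CCL22 included, were higher without overlap (16.1% of all). Whether the CCL22 rise differed between the arms is the interaction contrast above, which did not pass.

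From 3 to 6 h with aminaphtone limma called 0 of 5, against 0.266% of all, and again only CCL5 was at an unadjusted p under 0.05, with a difference of 0.68 (limma adjusted p = 0.362). CCL5 was higher without overlap (6.67% of all) and CCL2 was lower without overlap (-0.27; 13.6% of all). CCL22 differed by 0.0057 between these times. From 1 to 6 h 4 of 5 were called higher, against 6.01% of all, and all 5 were higher without overlap (21.1%). The rises were 4.52 for CCL5 (22.9-fold, limma adjusted p = 2.36e-08), 1.36 for CCL2, 0.95 for CX3CL1 (0.0203) and 0.91 for CCL20. CCL22 differed by 0.45 (adjusted p = 0.113). The CX3CL1 call was lost without aminaphtone replicate 1 or 2 at 1 h or any of the 3 treated arrays at 6 h (highest adjusted p 0.101).

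**Figure D3:**
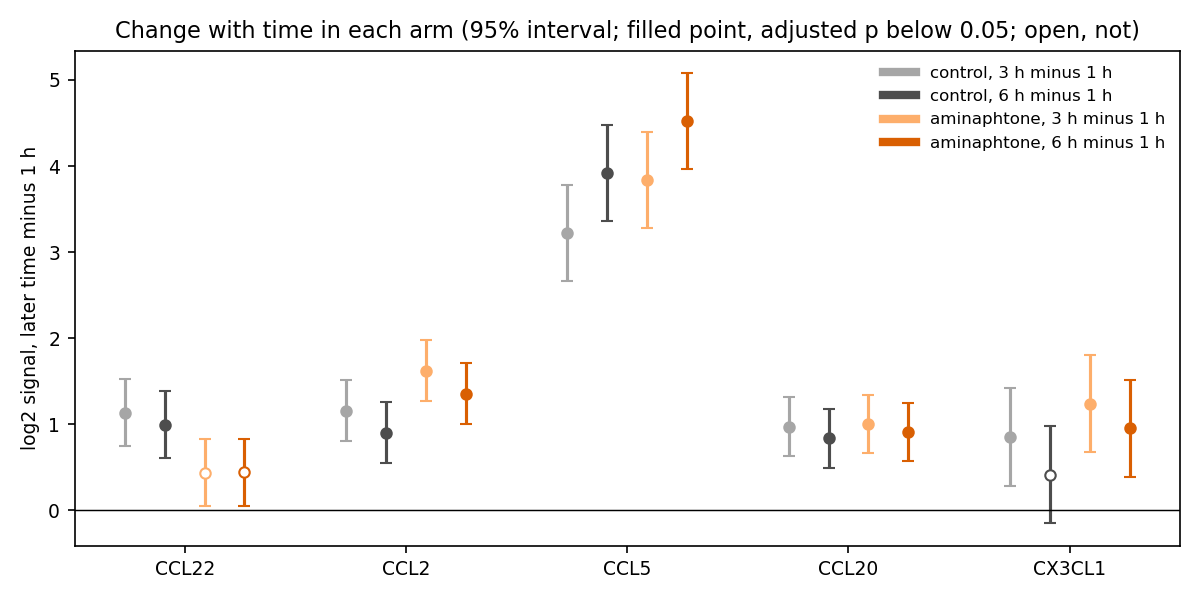
Change in log2 signal from 1 h to 3 h and to 6 h in each arm (points) with 95% intervals; filled points have a limma adjusted p below 0.05. CCL5 changed by 3.23 to 4.52 in both arms, and CCL22 passed with IL-1β alone (1.14 and 1.00) and not with aminaphtone (0.44 and 0.45).

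Ordered by group mean, CCL22 was highest in the controls at 3 h (8.41 ± 0.38, SD, n = 3) and 6 h (8.27 ± 0.23), which overlapped. A gap without overlap followed. The aminaphtone groups at 6 h (7.28 ± 0.05) and 3 h (7.27 ± 0.22) stood with the controls at 1 h (7.27 ± 0.30), with overlapping arrays, and the treated group at 1 h (6.83 ± 0.09) lay lowest and apart. CX3CL1 ran from 9.69 ± 0.48 in the controls at 3 h down to 8.84 ± 0.55 in the controls at 1 h with overlap between all neighbours, and the treated group at 1 h (7.89 ± 0.29) lay apart. CCL2 and CCL20 fell into the 4 groups at 3 and 6 h, whose neighbours overlapped, and the pair at 1 h below them. CCL5 formed 3 steps that followed the hour alone, with both arms overlapping in each.

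The genes beside CCL22 and CX3CL1 on chromosome 16 were set next to them. CCL17, the other ligand of CCR4 and the next gene after CX3CL1, differed between aminaphtone and control by -0.10 on average (interval -0.27 to 0.07, limma adjusted p = 0.431). CIAPIN1, an anti-apoptotic iron-sulphur protein, differed by -0.06 (0.655). PLLP, a membrane protein of myelin and epithelia, differed by -0.19 (0.264), and it fell by 1.01 from 1 to 3 h in the controls (limma adjusted p = 0.000477), where CCL22 rose. CCL17 differed by 0.04 over the same interval (adjusted p = 0.908). The average drug differences of the 3 flanking genes thus lay closer to 0 than those of CCL22 (-0.86) and CX3CL1 (-0.64), a comparison of estimates that was not itself tested.

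**Figure D4:**
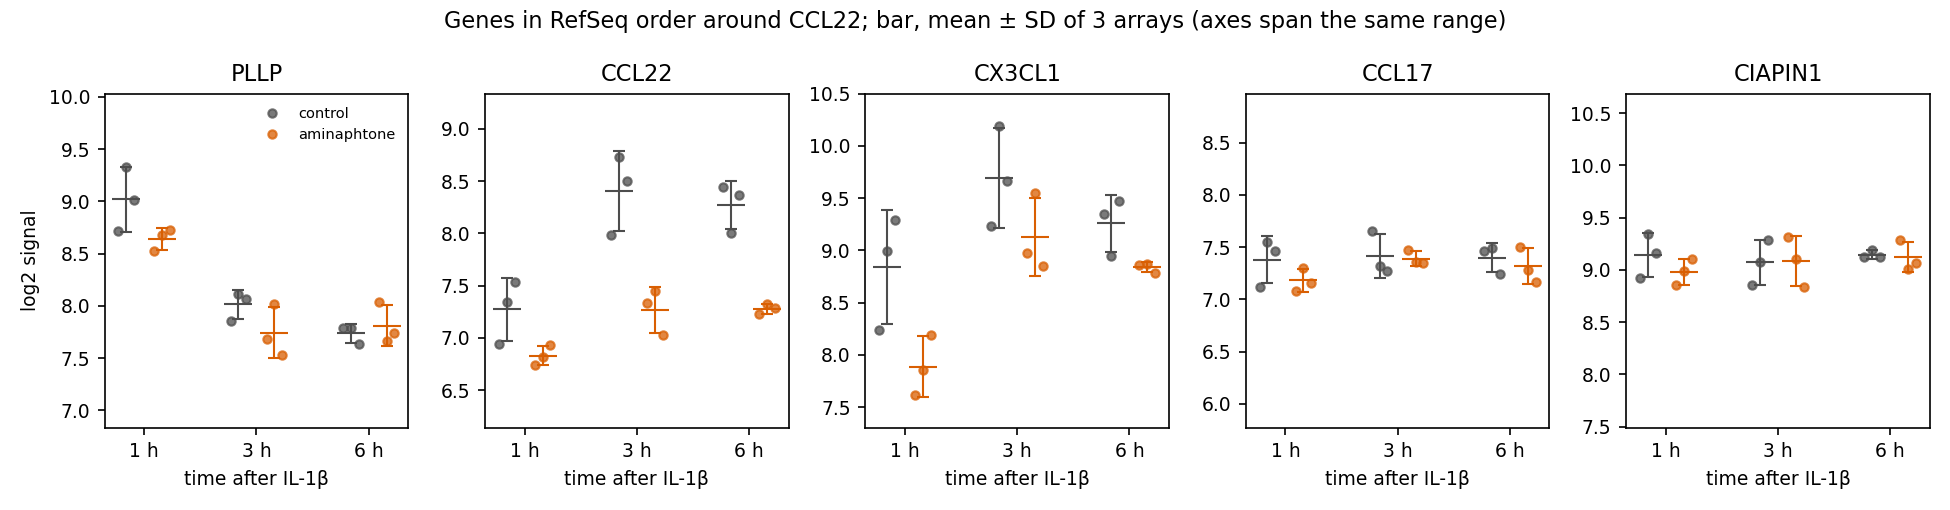
Log2 signal on each array (points) with mean and SD of 3 arrays for PLLP, CCL22, CX3CL1, CCL17 and CIAPIN1 in RefSeq order, each axis spanning the same range. The arms do not overlap in the CCL22 panel at any of the 3 times, narrowly at 1 h (6.93 against 6.94), nor in the CX3CL1 panel at 1 and 6 h. The PLLP means at 3 and 6 h lie below those at 1 h in both arms.

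The tested genes whose signals followed each member most closely over the 18 arrays were found by Pearson's r. The arrays share the time course and the treatment, so these values describe a common pattern over groups. A close companion of a gene that differs with aminaphtone is thereby likely to differ too, so its difference is no separate support. For CCL22 they were CTPS1, a CTP synthase (r = 0.905), EVA1A, a regulator of autophagy (0.899), and LTBP2, a matrix protein of the latent TGF-β binding family (0.896). EVA1A was lower with aminaphtone at 6 h (-0.80, limma adjusted p = 0.00562) and on average (-0.53, 0.000491), and CTPS1 on average (-0.24, 0.0446). LTBP2 averaged -0.31 (0.0634). For CX3CL1 they were the laminin chain LAMB3 (0.947), the protease inhibitor SERPINA3 (0.937) and SBNO2 (0.934), of which LAMB3 fell on average (-0.55, adjusted p = 0.0284).

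For CCL2 the closest were PLAT, tissue plasminogen activator (r = 0.986), the collagen chain COL4A1 (0.977) and the IL-1 receptor kinase IRAK2 (0.965). For CCL5 they were CDCP1 (0.995), SGPP2 (0.984) and TRIM25 (0.983). For CCL20 they were YPEL2 (0.98), the lipid phosphatase PLPP3 (0.965) and the transcription factor HIVEP2 (0.964). None of these 9 genes passed in any comparison of aminaphtone with control; PLAT had the widest difference at 1 h among the 3 companions of CCL2 (-1.14, limma adjusted p = 0.131).

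The other CC and XC ligands held 26 genes, of which 18 were on the array and 10 exceeded the filter. None of the 10 was called between aminaphtone and control at any time or on average, and their median average difference was -0.09 beside -0.02 for all clusters. CCL21 had the smallest p at 3 h (-0.23, limma adjusted p = 0.776). CCL28 differed by -0.61 at 6 h without overlap (limma adjusted p = 0.944), where 7.25% of all clusters were lower without overlap. CCL28, a ligand of mucosal epithelia, was the only one called from 1 to 3 h in the controls, where it fell by 0.84 (adjusted p = 0.0181), where 7.98% of all clusters were called lower. Of 13 receptors of CC and CX3C chemokines on the array only CCR7 and CCR10 exceeded the filter, and neither was called with the drug; CCR10 had the smaller p at 3 h (-0.13, adjusted p = 0.89). Among 4 tested genes of chemokine shedding (ADAM10, ADAM17, RHBDF1 and RHBDF2), none was called with the drug, and ADAM10 had the smallest p at 3 h (-0.47, adjusted p = 0.866). RHBDF2, a partner of the sheddase ADAM17, was the 1 of these 4 that rose from 1 to 3 h in the controls, by 0.59 (0.0295), against 4.81% of all.

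Of the 5 NF-κB subunits none was called between the arms. At 1 h RELB differed by -0.59, RELA by -0.57, NFKB2 by -0.46, NFKB1 by -0.06 and REL by 0.11. RELA alone was without overlap (limma adjusted p = 0.124), where 7.55% of all clusters were lower without overlap. The list's median was -0.46 beside -0.10 over all clusters. At 3 h REL had the smallest p (-0.40, adjusted p = 0.889), and the average differences ran from -0.23 for RELB to 0.13 for REL. From 1 to 3 h in the controls 3 of 5 rose, against 4.81% of all clusters called higher: NFKB1 by 1.06, NFKB2 by 0.74 and RELB by 0.50 (limma adjusted p = 0.00251, 0.0077 and 0.047), and REL fell by 1.73 from 3 to 6 h (0.0434), where 0.165% of all were called lower. Of 14 tested IκB proteins and feedback regulators 1 was called with the drug: TRAF1, an adaptor of TNF receptors that is itself induced by NF-κB. It fell by 0.56 on average (limma adjusted p = 0.0103), where 0.405% of all were called lower. TRAF1 was lower without overlap at all 3 times, as were 0.203% of all clusters. In the controls from 1 to 3 h 6 of these 14 rose and 3 fell, against 4.81% and 7.98% of all clusters, with TRAF1 up by 1.47, TNIP1 by 1.29 and CYLD by 1.06. Of 14 genes of IL-1 receptor signalling none was called with the drug, and IL1R1, the IL-1 receptor chain, had the smallest p at 3 h (0.56, limma adjusted p = 0.837). From 1 to 3 h in the controls 5 of the 14 rose, against 4.81% of all, led by IRAK2 (1.76), MAP3K8 (1.43) and IL1RAP (1.25).

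Of 6 genes of AU-rich mRNA decay, which shortens the life of many chemokine transcripts, none was called with the drug, and ZFP36L2 had the smallest p at 3 h (0.42, limma adjusted p = 0.609). In the controls 3 of the 6 fell from 1 to 3 h, against 7.98% of all clusters: ZFP36 fell by 1.67, ZFP36L1 by 0.96 and ZFP36L2 by 0.61. Of 8 tested genes of the interferon response none was called with the drug, and IRF9 had the smallest p at 3 h (0.15, limma adjusted p = 0.889). From 1 to 3 h in the controls 2 of the 8 rose and 2 fell, against 4.81% and 7.98% of all. The RNA sensors RIGI and IFIH1 rose by 1.32 and 0.93, and the transcription factor IRF1 fell by 0.85 and by a further 1.18 from 3 to 6 h. These lists are described by their counts alone.

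Marker lists were set beside the CCL22 difference. The mean log2 signal of the 7 macrophage and dendritic cell markers on the array ranged from 5.83 to 5.95 over the control arrays at 3 h and from 5.77 to 5.86 with aminaphtone, and at 6 h from 5.72 to 5.96 and from 5.71 to 5.86. None of the 4 tested was called with the drug. The 10 endothelial markers ranged from 6.25 to 6.37 in the controls at 3 h and from 6.07 to 6.19 with aminaphtone, without overlap, and from 6.23 to 6.33 and 6.15 to 6.30 at 6 h. CDH5, the endothelial cadherin, differed by -0.39 at 3 h and -0.42 at 6 h, without overlap (limma adjusted p = 0.474 and 0.679). Of all clusters 4.99% and 7.25% were lower without overlap at these times. The CDH5 average of -0.30 had a limma adjusted p of 0.0634. TIE1, ESAM and CLDN5 overlapped between the arms, with differences of -0.18, -0.05 and -0.08 at 3 h. At 6 h theirs were -0.10, -0.13 and 0.02. The 13 epithelial markers ranged from 7.87 to 8.13 in the controls and from 7.86 to 8.12 with aminaphtone at 3 h, and at 6 h from 7.84 to 7.85 and from 7.75 to 7.80, without overlap. Of these, KRT7 differed by -0.43 and KRT18 by -0.33 at 6 h, both without overlap (limma adjusted p = 0.791 and 1). UPK3A (-0.21) and CDH1 (-0.12) were also lower without overlap at 6 h, as were 7.25% of all clusters. At that time 7 of the 12 tested had a lower treated estimate, and UPK1B, UPK2, KRT19, EPCAM and GATA3 a higher one. None of the 12 tested was called with the drug. The part of these markers in the CCL22 difference was not tested.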

How the data were processed

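The authors' deposited values are log2 signals made by RMA in Affymetrix Expression Console, per the submitters' processing notes; version, genome build and which arrays were normalized together are not given in the sources used here. Its quantile step gives all arrays normalized together 1 distribution of probe signals, so a shift of all transcripts at once is not measured. Precision is limited by how many arrays there are. Of 28869 transcript clusters, 21062 were annotated and 19310 had 1 symbol. The 15796 annotated clusters above the 25th percentile of mean signal (log2 6.193) were fitted with 1 mean per group over all 18 arrays in limma 3.58.1 (R 4.3.3; 12 residual and 4.814 prior degrees of freedom). P-values are two-sided, adjusted by Benjamini and Hochberg over these, with a threshold of 0.05. The fit was tested on simulated data.

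The 5 members, the gene lists and the tests were chosen with earlier results of these data known. Named genes were the members and the 3 genes most correlated with each. Per list, up to 3 called genes with the largest difference per comparison were named, and 1 by p at 3 h where none passed with the drug. PLLP, CCL17 and CIAPIN1 were added for their position. Values of the NF-κB subunits at 1 h, of CCL28 at 6 h, of the tested endothelial markers and of the epithelial markers named at 6 h were added after they were seen. Replicate numbers were taken to pair arrays where all 3 same-numbered pairs of deviations correlated above 0.1, as at 1 h between the arms and between the controls at 1 and 3 h. Alternatives changed the variance model, scaling, filter, samples, block, array weights and a residual gradient, and left out each array.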

Additional observations from a re-analysis of the deposited data

How the results depend on the processing

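The lowering of CCL22 averaged over times kept its direction and call under all alternatives run, each left-out array included (differences -0.96 to -0.80), and the number of members called from 1 to 6 h in the controls stayed within 1.5 times under all. Centring arrays on their medians left 0 of 5 members called at 3 h and 0 at 6 h (CCL22 adjusted p 0.0611 and 0.0708). In that fit 2 and 11 of all 15796 clusters were called at these times. With only the compared arrays in the fit, 0 were called at 3 h, 2 from 1 to 3 h and 1 from 3 to 6 h in the controls. A replicate block over all groups gave 0 at 6 h (17 of all clusters called) and 2 on average (192 of all). The replicate block within times gave 2 at 1 h (15.6% of all clusters called) and 3 on average (4.65%). The residual gradient as a covariate gave 3 at 1 h and 3 on average. Array weights, whose estimation did not converge (51.9 for control replicate 3 at 1 h, 0.09 and 0.07 for replicates 1 and 2), gave 5 at 1 h, 2 at 6 h, 5 on average, 2 from 3 to 6 h in each arm and 5 for the interaction. The shares of all clusters called in the gradient, weighted and compared-arrays fits are not given here. Their counts are therefore not read as results about the members. Leaving out 1 array gave 0 to 4 members at 1 h, 0 to 1 at 3 h, 0 to 1 at 6 h, 1 to 3 on average, 4 to 5 from 1 to 3 h in the controls and 3 to 4 from 1 to 6 h with aminaphtone. The 4 at 1 h came from the fit without control replicate 1 at 1 h, where 53.9% of all clusters were called. Uncalled differences near 0 changed sign: CCL20 at 6 h to 0.0080 (centred) and 0.062 (weights), CCL22 from 3 to 6 h with aminaphtone to -0.021 and -0.023. With 1 array left out, ranges crossing 0 were CCL20 at 1 h (-0.34 to 0.076), 3 h (-0.11 to 0.00066), 6 h (-0.048 to 0.054) and on average (-0.13 to 0.0083), CCL5 at 3 h (-0.019 to 0.23) and on average (-0.19 to 0.020), and CCL22 from 3 to 6 h in the controls (-0.35 to 0.026) and with aminaphtone (-0.12 to 0.10). The causes were not tested. Each member had 1 row, so the other-row alternative gives no value.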
